A study of Mus musculus with 8 samples.

Results

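The transcripts of 50 genes of DNA replication and mitosis were followed in stimulated mouse regulatory T (Treg) cells. They were picked by gene symbol from a list of 29 mitotic genes and 21 S-phase genes. All 50 were found among the 22432 genes of the deposited table, and all 50 were among the 13797 genes that were expressed highly enough to be tested. RNA had been sequenced from 8 libraries, with 2 in each of 4 genotypes. All cells came from C57Bl/6 animals that carried Foxp3-CRE-YFP, a Cre recombinase and yellow fluorescent protein driven by the Treg gene Foxp3. WT cells had Cre and no floxed gene. RelB-KO cells were RelB F/F, Nfkb2-KO cells were nfkb2 F/F and DKO cells carried both floxed genes. Foxp3-CRE-YFP+ cells were sorted from pooled spleen and lymph nodes. Every group was then cultured for 16 h on plate-bound antibody to CD3 (5 µg/ml) with antibody to CD28 (1 µg/ml), agonist antibody to OX40 (2 µg/ml) and IL-2 (10 ng/ml), so there was no unstimulated group. The labels give neither the age or sex of the animals nor whether replicates came from separate animals, and p-values therefore measure only the spread between these libraries.

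A T cell that is stimulated through its antigen receptor with IL-2 leaves rest, copies its DNA in S phase and then divides in mitosis. S-phase genes, which encode the MCM helicase, polymerases and enzymes of nucleotide supply, are switched on by E2F factors as a cell leaves G1. Mitotic genes, which encode cyclins, spindle motors and kinetochore proteins, follow later and peak in G2 and M. RelB and the p52 product of Nfkb2 are the transcription factor subunits of the alternative NF-kB pathway, which OX40 can engage.

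Relb was at 6.35 and 6.52 log2 units in RelB-KO and 6.74 and 7.08 in DKO, against 10.49 to 10.84 in the others. Nfkb2 was at 8.75 and 8.79 in Nfkb2-KO and 9.29 and 9.85 in DKO, against 12.31 to 12.80 in the others. Both transcripts were higher in DKO than in the single knockout, without overlap. The part of this difference in the results was not tested. Foxp3 was at 13.95 to 14.28 in all 8 libraries. Summed un-logged levels of 8 B cell markers were 295.7 and 291.4 in DKO, above the 233.8 to 287.2 of the other 6 libraries. Cd79b contributed most, at 7.63 and 7.72 log2 units in DKO against 7.09 to 7.61. Blk was at 3.60 and 3.58 in Nfkb2-KO against 3.30 to 3.39 in the other 6 libraries, and Pax5 was listed at 0 throughout. Of the 6 B cell markers tested, 2 had positive and 4 negative DKO minus Nfkb2-KO differences. In Nfkb2-KO minus WT 3 were positive and 3 negative. Summed levels of 9 myeloid and dendritic cell markers were 198.5 to 282.3, and those of 8 CD8 T and NK cell markers were 613.4 to 940.0. Those of 7 Treg and T cell identity genes were 188202.7 and 193147.1 in DKO, above the 158428 to 175543.3 of the other 6 libraries. Il2ra, which encodes the IL-2 receptor alpha chain, contributed most to these sums. It was at 16.33 and 16.52 log2 units in DKO against 15.93 to 16.18. Gene by gene, 3 of the 7 had positive and 4 negative DKO minus WT differences, with a median of -0.035 log2 units. The part of these markers in the results was not tested. WT replicate 1 stood apart from the other 7 libraries in genes of the sex chromosomes. Its Xist value was 8.17, where the others had 14.61 to 15.13, and its Ddx3y value was 11.60, where the others had 4.25 to 4.35. In contrasts with WT and in the interaction, this difference cannot be told apart from genotype. Counts of called genes are also given without WT replicate 1 for Nfkb2-KO minus WT, DKO minus Nfkb2-KO and the interaction. Counts by sign, by unadjusted p and by the authors' adjusted p are given only with it. In these bulk libraries, fewer dividing cells and less RNA per dividing cell cannot be told apart.

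Mitotic transcripts were lowest in the Nfkb2-KO cells and highest in the DKO cells, whereas S-phase transcripts were highest in the DKO cells and were not lowest in the Nfkb2-KO cells as a class. The mean log2 expression value of the 29 mitotic genes in replicates 1 and 2 was 7.71 and 8.17 in WT, 7.62 and 8.27 in RelB-KO, 7.46 and 7.79 in Nfkb2-KO, and 7.92 and 8.43 in DKO. Replicate 2 was the higher library in each genotype. The mitotic means did not overlap between Nfkb2-KO and DKO, and WT and RelB-KO overlapped both. For the 21 S-phase genes, the mean was 9.71 and 9.99 in WT, 9.54 and 10.15 in RelB-KO, 9.68 and 10.07 in Nfkb2-KO, and 9.80 and 10.47 in DKO. The difference of the class means, mitotic minus S-phase, did not overlap between Nfkb2-KO, at -2.22 and -2.28, and the other genotypes. It was -2.003 and -1.82 in WT, -1.92 and -1.88 in RelB-KO and -1.88 and -2.04 in DKO. These differences carry no test, because the genes were chosen with earlier results of these data known.

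**Figure D1:**
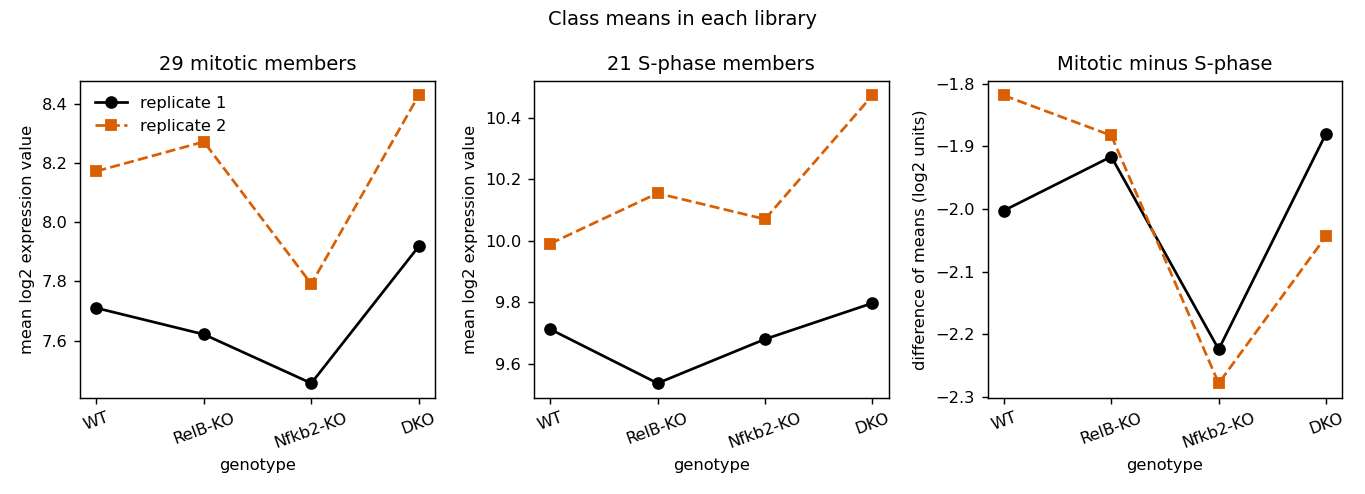
Mean log2 expression value of the 29 mitotic genes (left) and the 21 S-phase genes (middle) and the difference of these means (right, log2 units) in each library, by genotype. Circles and solid lines are replicate 1, squares and dashed lines are replicate 2, and each y axis covers only the range of its values. Mitotic means are lowest in Nfkb2-KO and highest in DKO at both replicate numbers, and the difference is lowest in Nfkb2-KO, at -2.22 and -2.28.

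Gene by gene, both Nfkb2-KO libraries were the lowest of the 4 genotypes at their own replicate number for 26 of 29 mitotic genes, against 13.4% of the genes tested. Both DKO libraries were the highest for 26 of 29, against 8.68%. Among the 21 S-phase genes these counts were 3 for Nfkb2-KO and 13 for DKO. No S-phase gene was lowest in a DKO library. The S-phase genes split by replicate number instead. RelB-KO was the lowest genotype for 16 of 21 at replicate 1 (25.9% of all genes) and WT for 16 of 21 at replicate 2 (29.7%).

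**Figure D2:**
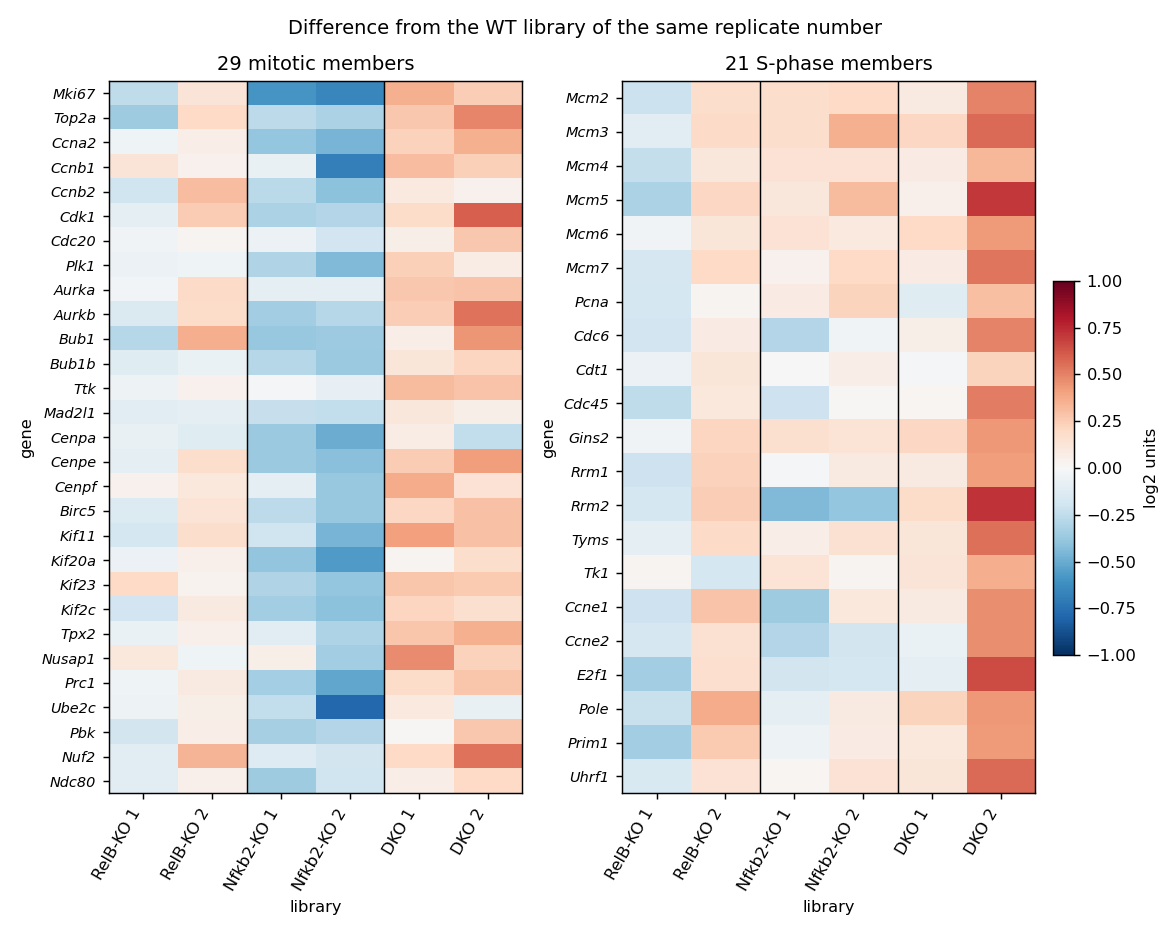
Difference of each knockout library from the WT library of the same replicate number (colour, log2 units, blue lower and red higher) for the 29 mitotic genes (left) and 21 S-phase genes (right). Both Nfkb2-KO columns are blue for the mitotic genes with 1 exception, Nusap1 at replicate 1, and the DKO replicate 2 column is the reddest for the S-phase genes.

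The promoters of the 2 classes hold different sequence elements, and a few are shown because the classes differed across genotypes. Promoter windows of 300 bases, from 250 before to 50 after a transcription start (RefSeq, GRCm38.p6), were found for 24 of 29 mitotic and 17 of 21 S-phase genes, and a gene was counted once if any of its windows held a match on either strand. The cell cycle genes homology region (CHR), which is bound by the MuvB complexes that repress mitotic genes in rest and activate them in G2, was searched as TTTGAA or TTCGAA. It was present in 18 of 24 mitotic genes (75.0%), in 3 of 17 S-phase genes (17.6%) and in 21.7% of 27025 genes. The CCAAT box (CCAAT), which is bound by NF-Y, was present in 18 of 24 (75.0%), in 11 of 17 (64.7%) and in 41.1%. An E2F site, searched as TTTCCCGC, TTTCGCGC, TTTGCCGC or TTTGGCGC, was present in 1 of 24 mitotic genes (Cdk1), in 7 of 17 S-phase genes (41.2%) and in 2.6% of all genes. The sequences below run 5′ to 3′ on the strand of the gene over 150 bases before the start and the first 30 bases from it, with CHR, CCAAT and E2F matches of either strand in capitals. The first 3 are the mitotic genes with the most CHR and CCAAT matches among a preselected part of those described here. That part did not include, for example, Bub1, Ttk, Cenpf and Kif2c. The fourth, Birc5, had no match in this window.
Top2a: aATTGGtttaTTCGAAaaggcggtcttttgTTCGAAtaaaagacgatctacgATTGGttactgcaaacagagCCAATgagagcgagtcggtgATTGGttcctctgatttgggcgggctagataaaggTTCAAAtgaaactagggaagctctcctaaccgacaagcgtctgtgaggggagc
Cdk1: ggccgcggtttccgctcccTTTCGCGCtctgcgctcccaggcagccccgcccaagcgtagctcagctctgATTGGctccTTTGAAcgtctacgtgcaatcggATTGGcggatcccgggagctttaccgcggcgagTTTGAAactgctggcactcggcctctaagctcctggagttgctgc
Mki67: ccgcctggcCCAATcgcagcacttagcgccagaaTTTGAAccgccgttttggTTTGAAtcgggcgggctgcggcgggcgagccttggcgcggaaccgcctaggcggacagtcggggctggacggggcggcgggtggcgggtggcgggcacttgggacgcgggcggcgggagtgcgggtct
Birc5: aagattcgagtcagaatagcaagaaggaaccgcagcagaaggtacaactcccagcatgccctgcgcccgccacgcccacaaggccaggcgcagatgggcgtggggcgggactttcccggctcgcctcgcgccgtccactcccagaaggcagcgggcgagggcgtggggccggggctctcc
In the same way the next 3 are S-phase genes with the most CCAAT and E2F matches. E2f1 had no match in the window shown, which lies inside the annotated gene.
Mcm7: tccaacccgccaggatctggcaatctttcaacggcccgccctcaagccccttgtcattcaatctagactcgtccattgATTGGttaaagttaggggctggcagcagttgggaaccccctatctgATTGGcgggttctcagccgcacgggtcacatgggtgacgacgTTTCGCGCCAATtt
Mcm5: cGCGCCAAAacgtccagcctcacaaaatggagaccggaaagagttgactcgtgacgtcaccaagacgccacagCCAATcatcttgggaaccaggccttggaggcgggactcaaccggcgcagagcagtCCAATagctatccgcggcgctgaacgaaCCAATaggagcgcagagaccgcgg
Mcm3: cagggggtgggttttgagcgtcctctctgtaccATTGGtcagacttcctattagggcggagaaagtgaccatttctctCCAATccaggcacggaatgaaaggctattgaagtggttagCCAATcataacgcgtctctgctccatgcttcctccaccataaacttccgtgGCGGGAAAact
E2f1: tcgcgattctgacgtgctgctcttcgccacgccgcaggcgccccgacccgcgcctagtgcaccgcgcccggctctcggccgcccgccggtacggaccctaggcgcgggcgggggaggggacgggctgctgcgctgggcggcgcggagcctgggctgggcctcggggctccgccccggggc
Top2a holds 3 CHR and 4 CCAAT matches (chr11:99024160-99024339 on the minus strand), Cdk1 holds 2 CHR, 2 CCAAT and 1 E2F match (chr10:69352883-69353062 on the minus strand) and Mki67 holds 2 CHR and 1 CCAAT match (chr7:135716350-135716529 on the minus strand). The Birc5 window is chr11:117849087-117849266 on the plus strand. Mcm7 (chr5:138171854-138172033 on the minus strand), Mcm5 (chr8:75109359-75109538 on the plus strand) and Mcm3 (chr1:20820283-20820462 on the minus strand) each hold 3 CCAAT and 1 E2F match and no CHR in the stretch shown, and in Mcm7 the E2F match shares its last base with a CCAAT box. The E2f1 window is chr2:154569397-154569576 on the minus strand. The E2f1 and Mcm7 windows lie wholly inside the genes as annotated in GENCODE vM21, which begin at chr2:154569892 and chr5:138172422. The bases before those annotated starts are not shown, so the E2f1 stretch does not tell whether they hold an E2F site. A match is a description of these letters and not a measured binding site. Within the mitotic class, genes with and without a CHR had like differences, with a median DKO minus Nfkb2-KO difference of 0.53 log2 units over 18 genes with one and 0.55 over 6 genes without.

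**Figure D3:**
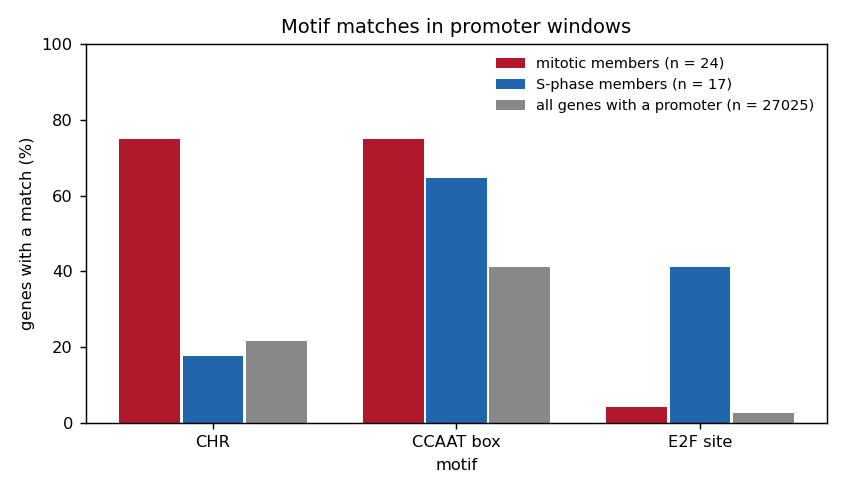
Share of genes (%, y axis from 0 to 100) whose 300-base promoter windows hold a CHR, CCAAT box or E2F site on either strand. Red bars are 24 mitotic genes, blue bars 17 S-phase genes and grey bars all 27025 genes with a window. CHR matches reach 75.0% in the mitotic class and 17.6% in the S-phase class, and E2F matches 4.17% and 41.2%.

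Differences between genotypes were tested with limma, a linear model with moderated variances fitted to all genes, and genes counted as called where their p, adjusted by Benjamini and Hochberg over 13797 genes, was under 0.05. Without a term for replicate number, 0 of 50 genes were called in any of the 7 contrasts. Of all genes 0.768% were called there in DKO minus Nfkb2-KO, 0.341% in Nfkb2-KO minus WT, 0.797% in Nfkb2-KO minus RelB-KO, 0.0145% in DKO minus WT, and 0.00725% in RelB-KO minus WT, in DKO minus RelB-KO and in the interaction. At an unadjusted p under 0.05 this fit had 5 mitotic genes in DKO minus Nfkb2-KO (9.86% of all genes in either direction), 1 in Nfkb2-KO minus WT (10.7%) and 1 in Nfkb2-KO minus RelB-KO (11.9%), 1 S-phase gene in DKO minus WT (5.18%), and 0 in RelB-KO minus WT (1.24%), DKO minus RelB-KO (2.88%) and the interaction (4.45%). With replicate number as a block, which removes the offset between replicates 1 and 2, the calls were mostly mitotic. In DKO minus Nfkb2-KO 22 mitotic genes and 1 S-phase gene rose and 0 fell, against 2.07% of all genes that rose. In Nfkb2-KO minus WT 4 mitotic genes fell, against 1% of all genes, and in Nfkb2-KO minus RelB-KO 6 mitotic genes fell, against 1.67%. No S-phase gene was called in either. RelB-KO minus WT, DKO minus WT and DKO minus RelB-KO had 0 calls among the 50 with the block, with 0.0145%, 0.0652% and 0.0145% of all genes called in either direction.

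Some of these counts changed when a single library was left out. Such fits hold 1 library in that genotype and fewer residual degrees of freedom, and the part of this in the counts was not tested. Of the 23 calls in DKO minus Nfkb2-KO, 4 remained without Nfkb2-KO replicate 2, 6 without DKO replicate 1 and 1 without DKO replicate 2, whereas 16 remained without Nfkb2-KO replicate 1 and 21 without WT replicate 1. None of the 4 calls in Nfkb2-KO minus WT remained without WT replicate 1, WT replicate 2 or either Nfkb2-KO replicate. In Nfkb2-KO minus RelB-KO none of the 6 calls remained without RelB-KO replicate 2 or Nfkb2-KO replicate 2, and 1 remained without RelB-KO replicate 1 or Nfkb2-KO replicate 1. Without DKO replicate 1, and likewise without DKO replicate 2, 2 of the 4 calls against WT and 2 of the 6 against RelB-KO remained.

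Over the mitotic class, the median DKO minus Nfkb2-KO difference was 0.53 log2 units against 0.0005 over all genes, and it was positive for 29 of 29 genes at both replicate numbers (28.6% of all genes). The libraries of the 2 genotypes did not overlap for 25 of 29 (17.4% of all genes). Over the S-phase class the median was 0.22, positive at both replicate numbers for 15 of 21, and 3 genes did not overlap (Mcm6, Rrm2 and Ccne1). In Nfkb2-KO minus WT the mitotic median was -0.33, with 28 of 29 genes negative at both replicate numbers (30.9% of all genes) and 9 lower without overlap (20.9%). The S-phase median there was 0.08, with 11 of 21 positive (34.4% of all genes) and 4 of 21 negative at both replicate numbers. Of these genes Mcm2, Mcm5 and Mcm6 were higher without overlap (21.6%), and E2f1 was lower without overlap. The Nfkb2-KO libraries enter both contrasts, so these are not independent of each other. Without single libraries the mitotic median ranged from 0.27 (without DKO replicate 2) to 0.80 (without DKO replicate 1) in DKO minus Nfkb2-KO and from -0.53 (without WT replicate 1) to -0.10 (without Nfkb2-KO replicate 1) in Nfkb2-KO minus WT, since the genotypes then held unequal replicate numbers. The authors' deposited table gives 8 mitotic genes as lower in Nfkb2-KO at the authors' adjusted p under 0.05 against WT, against 2.73% of all genes with an adjusted p, and 0 of 21 S-phase genes were called.

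**Figure D4:**
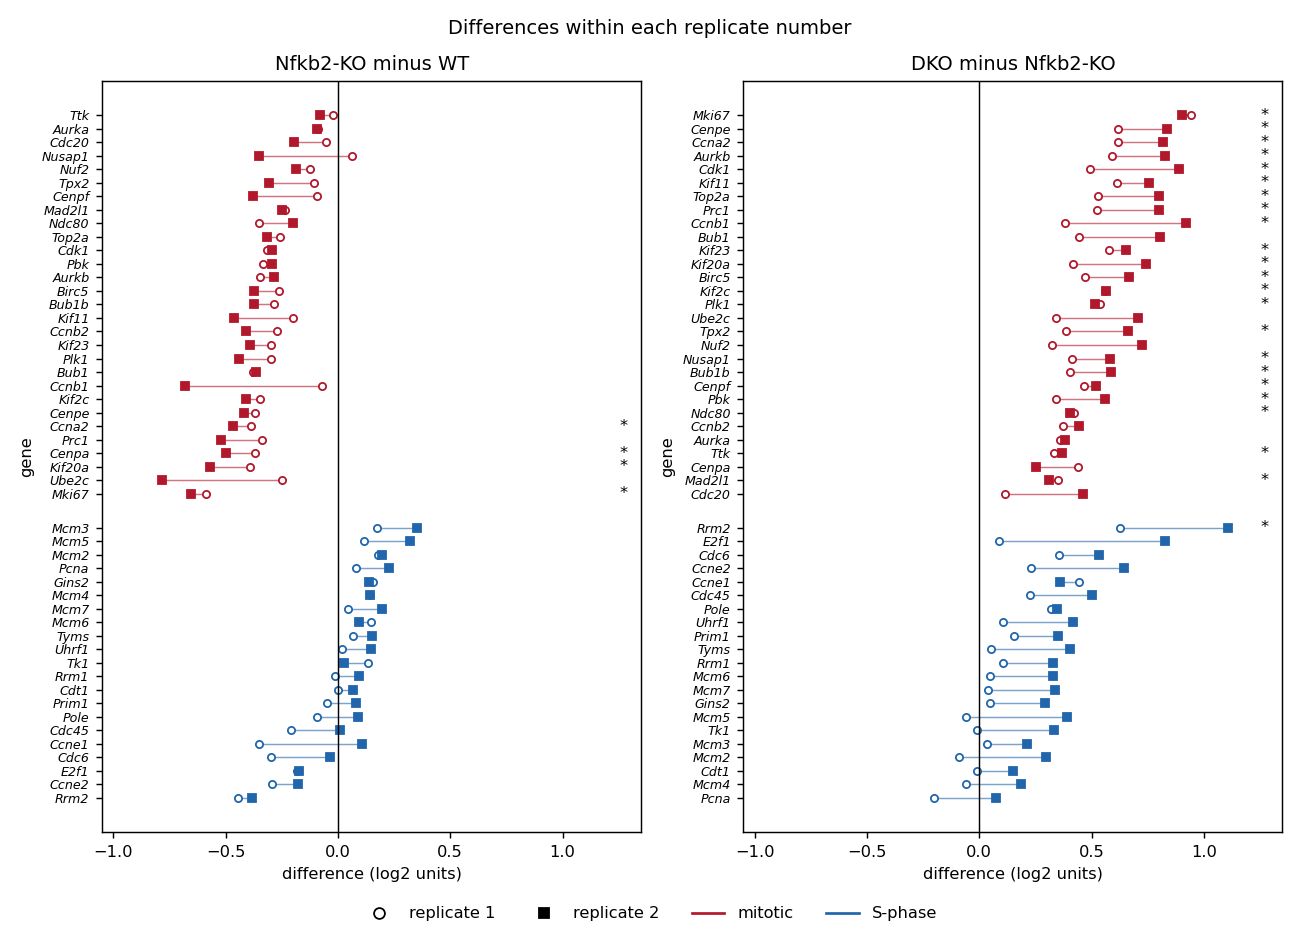
Differences in log2 units within replicate 1 (open circles) and replicate 2 (filled squares) for every gene, mitotic in red and S-phase in blue, for Nfkb2-KO minus WT (left) and DKO minus Nfkb2-KO (right). Genes are ordered within each class by their mean difference, and asterisks mark an adjusted p under 0.05 in limma with the replicate block. All 29 mitotic genes lie right of 0 at both replicate numbers in DKO minus Nfkb2-KO, and 28 of 29 lie left of 0 at both in Nfkb2-KO minus WT.

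Mki67, which encodes the Ki-67 antigen that coats mitotic chromosomes and marks dividing cells, had the largest difference of all 50 genes in these contrasts. Its value in replicates 1 and 2 was 10.47 and 11.05 in WT, 10.22 and 11.18 in RelB-KO, 9.89 and 10.40 in Nfkb2-KO, and 10.83 and 11.30 in DKO. Each Nfkb2-KO library was the lowest at its own replicate number, and the 2 lay under every WT and DKO library. The DKO minus Nfkb2-KO difference was 0.92 log2 units (SE 0.37 and adjusted p = 0.48 without the block, SE 0.11 and adjusted p = 0.00306 with it). Against WT, Mki67 in Nfkb2-KO differed by -0.62 log2 units (SE 0.37 and adjusted p = 0.645 without the block, SE 0.11 and adjusted p = 0.0276 with it). Top2a, the topoisomerase that untangles sister chromatids, was at 10.69 and 11.18 in WT, 10.34 and 11.38 in RelB-KO, 10.44 and 10.86 in Nfkb2-KO, and 10.97 and 11.66 in DKO. Nfkb2-KO overlapped WT but not DKO, and RelB-KO spanned the widest range. The DKO minus Nfkb2-KO difference of Top2a was 0.66 log2 units (SE 0.39 and adjusted p = 0.715 without the block, SE 0.13 and adjusted p = 0.0238 with it).

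Cyclins and their kinase followed. Ccna2, the cyclin of late S phase and G2, was at 8.13 and 8.99 in WT, 8.08 and 9.06 in RelB-KO, 7.74 and 8.53 in Nfkb2-KO, and 8.36 and 9.35 in DKO. At each replicate number Nfkb2-KO was lowest and DKO highest, but the wide gap between replicates made the genotypes overlap. The DKO minus Nfkb2-KO difference was 0.72 log2 units (SE 0.51 and adjusted p = 0.795 without the block, SE 0.09 and adjusted p = 0.00265 with it), and its Nfkb2-KO minus WT difference was -0.43 log2 units (SE 0.51 and adjusted p = 0.859 without the block, SE 0.09 and adjusted p = 0.0383 with it). Exons of Ccna2 overlap Exosc9 on the other strand, and the sources used here do not say whether reads were counted by strand.

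Ccnb1, the cyclin that brings cells into mitosis, was at 6.38 and 7.55 in WT, 6.51 and 7.60 in RelB-KO, 6.31 and 6.87 in Nfkb2-KO, and 6.69 and 7.79 in DKO. The 4 genotypes lay close at replicate 1, and Nfkb2-KO stood lower at replicate 2. Its DKO minus Nfkb2-KO difference was 0.65 log2 units (SE 0.56 and adjusted p = 0.887 without the block, SE 0.14 and adjusted p = 0.0359 with it). Cdk1, the kinase that these cyclins activate, was at 8.14 and 8.57 in WT, 8.05 and 8.83 in RelB-KO, 7.83 and 8.28 in Nfkb2-KO, and 8.32 and 9.16 in DKO. DKO did not overlap Nfkb2-KO, and WT and Nfkb2-KO overlapped. For DKO minus Nfkb2-KO the difference was 0.69 log2 units (SE 0.37 and adjusted p = 0.656 without the block, SE 0.12 and adjusted p = 0.0124 with it). Ccnb2, the second B-type cyclin, had a difference of 0.41 there that was not called (adjusted p = 0.19 with the block).

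All 6 genes of mitotic kinases and their cofactors had positive DKO minus Nfkb2-KO differences, with a median of 0.53 log2 units. With the block 5 of 6 were called, against 2.07% of all genes that rose. Genes were grouped by role, here and below, after the values were seen. Plk1, the polo kinase of mitotic entry and spindle assembly, was at 7.08 and 7.58 in WT, 7.03 and 7.54 in RelB-KO, 6.78 and 7.14 in Nfkb2-KO, and 7.32 and 7.66 in DKO. Nfkb2-KO was lowest at both replicate numbers and did not overlap DKO. Its difference was 0.53 log2 units (SE 0.25 and adjusted p = 0.592 without the block, SE 0.09 and adjusted p = 0.0122 with it). Aurkb, the catalytic subunit of the chromosomal passenger complex, was at 7.53 and 7.94 in WT, 7.38 and 8.12 in RelB-KO, 7.18 and 7.65 in Nfkb2-KO, and 7.77 and 8.48 in DKO. DKO did not overlap Nfkb2-KO and was the highest genotype at both replicate numbers. Its difference was 0.71 log2 units (SE 0.34 and adjusted p = 0.594 without the block, SE 0.11 and adjusted p = 0.00672 with it).

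Birc5 encodes survivin, which places Aurora B at the centromere. It was at 7.29 and 7.67 in WT, 7.15 and 7.81 in RelB-KO, 7.02 and 7.30 in Nfkb2-KO, and 7.49 and 7.96 in DKO, with Nfkb2-KO lowest at both replicate numbers and no overlap between Nfkb2-KO and DKO. The difference was 0.57 log2 units (SE 0.27 and adjusted p = 0.591 without the block, SE 0.11 and adjusted p = 0.0176 with it). Tpx2, the activator of Aurora A, and the mitotic kinase gene Pbk rose by 0.52 and 0.45 in the same contrast with the block (adjusted p = 0.0181 and 0.0359). Aurka itself had a difference of 0.37 that was not called (adjusted p = 0.0584 with the block).

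**Figure D5:**
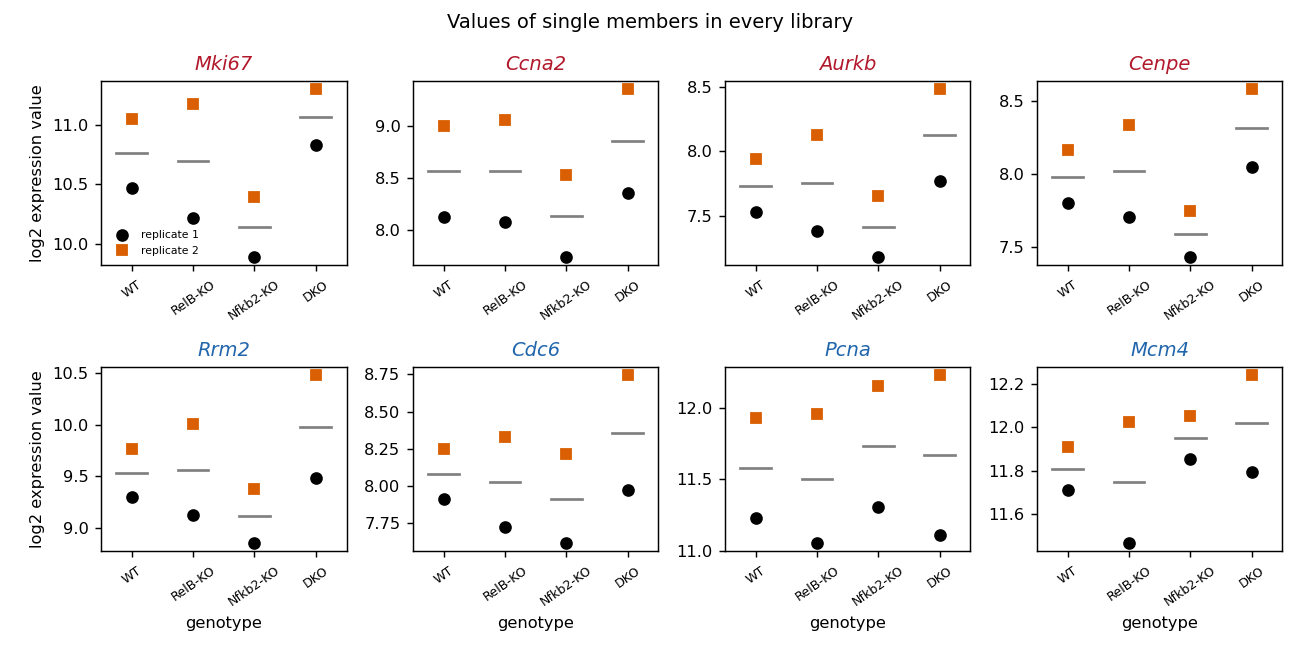
Log2 expression value of 4 mitotic genes (top, red names) and 4 S-phase genes (bottom, blue names) in every library, by genotype. Circles are replicate 1, squares replicate 2 and grey lines the mean of the 2 libraries, and each y axis covers only the range of its gene. Nfkb2-KO lies lowest and DKO highest at both replicate numbers in the top row, and the order differs for Pcna and Mcm4.

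Among centromere and kinetochore genes, 3 of 5 rose in DKO over Nfkb2-KO with the block, against 2.07% of all genes. Cenpe, the kinesin that carries chromosomes to the spindle equator, was at 7.80 and 8.16 in WT, 7.71 and 8.34 in RelB-KO, 7.43 and 7.75 in Nfkb2-KO, and 8.05 and 8.58 in DKO. Nfkb2-KO lay under every WT and DKO library. Its difference was 0.73 log2 units (SE 0.27 and adjusted p = 0.441 without the block, SE 0.10 and adjusted p = 0.0051 with it). Cenpf and Ndc80, a kinetochore protein and the microtubule-binding subunit of the kinetochore, rose by 0.49 ± 0.11 and 0.41 ± 0.09 (± SE, adjusted p = 0.0359 and 0.0306 with the block). Nuf2, the partner of Ndc80, differed by 0.52 and was not called (adjusted p = 0.0614). Cenpa, the centromeric histone H3 variant, was lower in Nfkb2-KO than in WT, with a difference of -0.43 log2 units (SE 0.15 and adjusted p = 0.394 without the block, SE 0.09 and adjusted p = 0.0479 with it). In DKO over Nfkb2-KO it differed by 0.35 and was not called (adjusted p = 0.0791 with the block), and it was the only mitotic gene whose DKO minus WT difference was negative, at -0.09.

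All 6 genes of spindle motors and microtubule binders rose in DKO over Nfkb2-KO with the block, against 2.07% of all genes. Their median difference was 0.60 log2 units. Kif23, a kinesin of the central spindle, had an adjusted p of 0.00511 with the block and a difference of 0.61, and Prc1, which bundles the same microtubules, had 0.00713 and 0.66. Kif11, the motor that pushes spindle poles apart, rose by 0.68, Kif2c, a microtubule depolymerase, by 0.56, and Nusap1, a spindle microtubule binder, by 0.50 (adjusted p = 0.0221, 0.0175 and 0.0355). Kif20a, a motor of cytokinesis, rose by 0.58 (adjusted p = 0.0129) and was also lower in Nfkb2-KO than in WT, with a difference of -0.48 log2 units (SE 0.26 and adjusted p = 0.613 without the block, SE 0.10 and adjusted p = 0.0414 with it). In Nfkb2-KO minus RelB-KO the block fit called Kif23 at -0.46, Kif20a at -0.48, Prc1 at -0.45, Mki67 at -0.56, Cenpe at -0.44 and Ccna2 at -0.43, with adjusted p from 0.0199 to 0.0475. Exons of Kif20a, Prc1 and Nusap1 overlap Cdc23, Rccd1 and Oip5 on the other strand, and those of Cdc20 and Ube2c overlap Elovl1 and Tnnc2.

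With the block 3 of 6 genes of the spindle checkpoint and the anaphase-promoting complex rose there, against 2.07% of all genes. Their median DKO minus Nfkb2-KO difference, 0.42 log2 units, was the smallest of the mitotic groups. Cdc20, the activator of the anaphase-promoting complex, was at 7.93 and 8.41 in WT, 7.90 and 8.44 in RelB-KO, 7.88 and 8.21 in Nfkb2-KO, and 7.996 and 8.68 in DKO. Nfkb2-KO was lowest and DKO highest at each replicate number, and the 2 genotypes overlapped. Its DKO minus Nfkb2-KO difference was 0.29 log2 units (SE 0.30 and adjusted p = 0.938 without the block, SE 0.10 and adjusted p = 0.166 with it). Mad2l1, the checkpoint protein that holds Cdc20 back, was at 8.68 and 9.06 in WT, 8.57 and 8.96 in RelB-KO, 8.44 and 8.81 in Nfkb2-KO, and 8.79 and 9.12 in DKO. The same order held, and DKO overlapped Nfkb2-KO. Its difference was 0.33 log2 units (SE 0.22 and adjusted p = 0.758 without the block, SE 0.08 and adjusted p = 0.0429 with it). Of the other checkpoint genes, Bub1b and Ttk rose by 0.50 ± 0.08 and 0.35 ± 0.08 (± SE, adjusted p = 0.0105 and 0.0479 with the block). The checkpoint kinase gene Bub1 and Ube2c, the ubiquitin-conjugating enzyme of the complex, differed by 0.62 and 0.53 and were not called (adjusted p = 0.0548 and 0.0793). Ube2c was one of the 8 genes that the authors' deposited table gave as lower in Nfkb2-KO than in WT, at -0.60 (the authors' adjusted p = 0.0199). The others there were Mki67, Ccna2, Plk1, Cenpa, Cenpe, Kif20a and Prc1, at -0.50 to -0.64.

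On the S-phase side, the 3 G1/S regulators had negative Nfkb2-KO minus WT differences (median -0.18 log2 units) and positive DKO minus Nfkb2-KO differences (median 0.44), and 0 of 3 were called. E2f1, an activator of S-phase genes, was at 8.05 and 8.20 in WT, 7.71 and 8.37 in RelB-KO, 7.87 and 8.03 in Nfkb2-KO, and 7.96 and 8.85 in DKO. DKO replicate 2 stood above every other library, DKO replicate 1 lay under both WT libraries, and Nfkb2-KO lay under WT. For DKO minus Nfkb2-KO the difference was 0.46 log2 units (SE 0.32 and adjusted p = 0.794 without the block, SE 0.17 and adjusted p = 0.222 with it). Ccne1, a cyclin that starts S phase, was at 7.44 and 7.37 in WT, 7.24 and 7.66 in RelB-KO, 7.09 and 7.48 in Nfkb2-KO, and 7.54 and 7.84 in DKO. DKO lay above every WT and Nfkb2-KO library. Its difference was 0.40 log2 units (SE 0.19 and adjusted p = 0.595 without the block, SE 0.12 and adjusted p = 0.123 with it). Ccne2, its paralog, was at 6.39 and 6.97 in WT, 6.22 and 7.13 in RelB-KO, 6.10 and 6.79 in Nfkb2-KO, and 6.33 and 7.44 in DKO. Every replicate 2 library lay above every replicate 1 library. Its difference was 0.44 log2 units (SE 0.47 and adjusted p = 0.951 without the block, SE 0.13 and adjusted p = 0.0982 with it), and its exons overlap Ints8 on the other strand.

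Of the factors that load the helicase, Cdc6 was at 7.92 and 8.25 in WT, 7.72 and 8.33 in RelB-KO, 7.62 and 8.21 in Nfkb2-KO, and 7.97 and 8.75 in DKO. DKO was the highest genotype at each replicate number and overlapped Nfkb2-KO. Its DKO minus Nfkb2-KO difference was 0.44 log2 units (SE 0.34 and adjusted p = 0.838 without the block, SE 0.11 and adjusted p = 0.056 with it). Its partner Cdt1 differed by 0.07 (adjusted p = 0.777 with the block).

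The 6 MCM genes, which encode the helicase that unwinds DNA at origins, did not share the negative Nfkb2-KO minus WT differences of the mitotic genes. All 6 were positive, from 0.12 (Mcm6) to 0.26 (Mcm3), with a median of 0.17 log2 units, and 0 of 6 were called with or without the block. Mcm2 was at 11.70 and 11.86 in WT, 11.49 and 12.03 in RelB-KO, 11.88 and 12.05 in Nfkb2-KO, and 11.79 and 12.35 in DKO. Both Nfkb2-KO libraries lay above both WT libraries. The Nfkb2-KO minus WT difference was 0.19 log2 units (SE 0.23 and adjusted p = 0.868 without the block, SE 0.11 and adjusted p = 0.42 with it), and the DKO minus Nfkb2-KO difference was 0.10, negative at replicate 1 and positive at replicate 2. Mcm5 was at 11.74 and 11.76 in WT, 11.42 and 11.97 in RelB-KO, 11.85 and 12.08 in Nfkb2-KO, and 11.79 and 12.47 in DKO. Nfkb2-KO and DKO both lay above WT, and DKO replicate 2 was the highest library. Its Nfkb2-KO minus WT difference was 0.22 log2 units (SE 0.26 and adjusted p = 0.857 without the block, SE 0.14 and adjusted p = 0.449 with it). Mcm4 was at 11.71 and 11.91 in WT, 11.47 and 12.03 in RelB-KO, 11.85 and 12.05 in Nfkb2-KO, and 11.80 and 12.24 in DKO. Its values overlapped between Nfkb2-KO and DKO, which differed by 0.07 log2 units (SE 0.22 and adjusted p = 1 without the block, SE 0.10 and adjusted p = 0.844 with it).

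Pcna, the sliding clamp of the polymerases, was at 11.23 and 11.93 in WT, 11.06 and 11.96 in RelB-KO, 11.31 and 12.16 in Nfkb2-KO, and 11.11 and 12.23 in DKO. Every replicate 2 library lay above every replicate 1 library. It was the only one of the 50 with a negative DKO minus Nfkb2-KO difference, -0.06 log2 units (SE 0.51 and adjusted p = 1 without the block, SE 0.10 and adjusted p = 0.848 with it). The other fork and chromatin genes had DKO minus Nfkb2-KO differences of 0.17 for the helicase subunit gene Gins2, 0.25 for the primase gene Prim1, 0.26 for the maintenance methylation factor gene Uhrf1, 0.33 for the polymerase gene Pole and 0.36 for the helicase cofactor gene Cdc45, and 0 of these were called.

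Rrm2, the small subunit of ribonucleotide reductase, was the one S-phase gene called by limma with the block fitted to all 8 libraries. It was at 9.30 and 9.76 in WT, 9.13 and 10.01 in RelB-KO, 8.86 and 9.38 in Nfkb2-KO, and 9.48 and 10.48 in DKO. At each replicate number Nfkb2-KO was lowest and DKO highest, and the 2 genotypes did not overlap. Its DKO minus Nfkb2-KO difference was 0.87 log2 units (SE 0.42 and adjusted p = 0.6 without the block, SE 0.13 and adjusted p = 0.00693 with it). Against WT its differences were -0.41 in Nfkb2-KO and 0.45 in DKO, neither called (adjusted p = 0.139 and 0.253 with the block). Its large-subunit partner Rrm1 differed by 0.22 in DKO over Nfkb2-KO. Tyms, which makes thymidylate, was at 8.79 and 9.03 in WT, 8.69 and 9.22 in RelB-KO, 8.86 and 9.19 in Nfkb2-KO, and 8.91 and 9.59 in DKO. DKO was highest at each replicate number and overlapped Nfkb2-KO. Its difference was 0.23 log2 units (SE 0.27 and adjusted p = 0.966 without the block, SE 0.11 and adjusted p = 0.358 with it), and that of the salvage kinase gene Tk1 was 0.16. Pcna, Tyms, Ccnb1 and Ccnb2 have named pseudogenes with which reads could be shared, and Mcm7, Cdc45, Gins2, Tk1 and Pole overlap exons of genes on the other strand.

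Against WT, the DKO cells had positive differences in both classes, with medians of 0.26 log2 units (mitotic, 28 of 29 positive) and 0.28 (S-phase, 21 of 21 positive) against 0.0009 over all genes, 50.7% of which were positive. None was called with or without the block. At an unadjusted p under 0.05 the block fit had 16 mitotic and 12 S-phase genes higher, against 6.56% of all genes. The S-phase differences were larger at replicate 2, with class means of 0.08 at replicate 1 and 0.48 at replicate 2, whereas the mitotic class means were 0.21 and 0.26. The largest were 0.45 for Rrm2, 0.39 for Mcm3 and 0.38 for Mcm5 in the S-phase class and 0.39 for Aurkb, 0.39 for Cdk1 and 0.38 for Top2a in the mitotic class. In the authors' deposited table Mcm3 was the only one of the 50 called in DKO against WT, at 0.40 (the authors' adjusted p = 0.0343), where 0.593% of all genes were called higher.

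RelB-KO cells stayed near WT, with class medians of 0.0003 (mitotic) and -0.0035 (S-phase). The signs went with the replicate number, with mitotic class means of -0.09 at replicate 1 and 0.10 at replicate 2 and S-phase class means of -0.18 and 0.16. The 3 largest of the mitotic class were 0.12 for Kif23, 0.11 for Nuf2 and -0.10 for Mad2l1, and the 3 largest of the S-phase class were 0.09 for Gins2, -0.09 for E2f1 and 0.07 for Pole, each with an adjusted p of 1 with and without the block. At an unadjusted p under 0.05 the block fit had 0 of the 50 genes (3.13% of all genes), and the authors' deposited table called none of them (0.119%). DKO minus RelB-KO medians were 0.22 (mitotic) and 0.30 (S-phase), with 29 of 29 and 21 of 21 positive (49.7% of all genes) and 0 called. At an unadjusted p under 0.05 the block fit had 14 mitotic and 15 S-phase genes higher there, against 4.59% of all genes. Libraries did not overlap for Aurka, Ttk, Mcm5, Mcm6 and Ccne1 in DKO minus WT (16.6% of all genes), for Mcm6 in DKO minus RelB-KO (13.2%) and for Cenpa, Kif20a, Kif23 and Prc1, all lower, in Nfkb2-KO minus RelB-KO (21.1%). The contrasts with WT share the WT libraries and those with RelB-KO share the RelB-KO libraries.

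Whether the effect of losing Nfkb2 differed with Relb present or absent was tested as an interaction, the DKO minus RelB-KO difference less the Nfkb2-KO minus WT difference. Its median was 0.57 log2 units over the mitotic genes (29 of 29 positive at both replicate numbers, 25.4% of all genes) and 0.22 over the S-phase genes (18 of 21 positive at both) against -0.0028 over all genes. Only Mki67 was called, at 0.99 log2 units (SE 0.52 and adjusted p = 1 without the block, SE 0.16 and adjusted p = 0.0451 with it), where 0.116% of all genes were called higher with the block. That call did not remain without WT replicate 1 or any of 6 other libraries, and it remained without RelB-KO replicate 2. In the same terms, 25 of 29 mitotic genes (86.2%) had both Nfkb2-KO libraries under the WT library of their replicate number and both DKO libraries over the RelB-KO library of theirs, against 4 of 21 S-phase genes (19%) and 5.1% of all genes.

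Replicate number moved these genes as much as genotype did. Replicate 2 exceeded replicate 1 for 29 of 29 mitotic genes in each genotype and for 20 or 21 of 21 S-phase genes, against 47.1 to 48.4% of all genes. The median difference of replicate 2 over replicate 1 was 0.32 (Nfkb2-KO) to 0.63 (RelB-KO) over the mitotic genes and 0.21 (WT) to 0.60 (DKO) over the S-phase genes. The largest, as means over the 4 genotypes, were 0.98 for Ccnb1, 0.90 for Ccna2 and 0.73 for Kif11, and 0.90 for Mcm7, 0.89 for Pcna and 0.82 for Ccne2. Summed un-logged levels of markers of other cells moved with replicate number as well. Those of the CD8 T and NK cell markers were 613.4 to 779.6 in replicate 1 and 846.2 to 940.0 in replicate 2. Nkg7 contributed most to these sums, at 8.14 to 8.68 log2 units in replicate 1 and 8.87 to 9.22 in replicate 2. Cd8b1 was lower at replicate 2 in WT, Nfkb2-KO and DKO and higher in RelB-KO, and Cd8a was at 0.87 to 0.92 throughout. Summed levels of the myeloid and dendritic cell markers were 234.7 to 282.3 in replicate 1 and 198.5 to 226.9 in replicate 2. The part of these markers in the difference between replicates was not tested. The labels do not say what the replicate number stands for.

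Other genes of the same processes, from lists of further replication and mitotic genes, lay alike. Of 52 other mitotic genes in the table, 20 rose and 0 fell in DKO over Nfkb2-KO with the block (2.07% of all genes rose), the median was 0.42 log2 units, and 48 of 52 were positive at both replicate numbers. Those with the smallest p were Incenp (0.52), a chromosomal passenger, Hmmr (0.59), a spindle protein, Mybl2 (0.68), the B-MYB factor that acts with MuvB at mitotic genes, Espl1 (0.53), the separase, and Kif18b (0.64), a spindle kinesin. Of 43 other replication genes, 3 rose, which were Clspn (0.68) of the replication checkpoint, Dbf4 (0.36), the activator of the origin-firing kinase, and Chaf1b (0.42) of the chromatin assembly factor, and the median was 0.15. In Nfkb2-KO minus WT the medians were -0.20 for the other mitotic and 0.04 for the other replication genes. There was 1 call over both lists with the block, against 1% of all genes called lower. It was Cdc25b, the phosphatase that activates Cdk1, which fell by 0.58 (adjusted p = 0.0178). None of these was called without the block.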

How the data were processed

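The authors deposited log2 expression values per gene and library, called log2 RPKM and batch corrected per the file headers, together with log2 fold changes and adjusted p-values for the 3 knockouts, which are named as the authors' where used. The submitters' processing notes name STAR, mm10 and DESeq2 1.10.1 without roles. How reads were counted, on which annotation, and how batches were corrected is not given in the sources used here. Un-logged values times gene length did not sum as RPKM would, so values were used as relative log2 expression. Levels were set beside each other between genes only in the marker sums, in which genes with large values weigh most. Read depth behind each value is unknown. The 8 z-score columns were not used.

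Genes at 0 in all libraries (6247), 1 gene with a blank cell and genes with a mean un-logged value under 1 were left out, and 13797 were tested. limma 3.58.1 (R 4.3.3) was fitted to all 8 libraries with 4 genotypes and a variance trend (4 residual degrees of freedom, 3 with replicate number as a block), and Benjamini-Hochberg adjustment ran over all genes tested for each contrast. The procedure was tested on simulated data. Replicate numbers were checked for pairing. The differences of replicate 2 from replicate 1 correlated across genes at 0.81 to 0.89 between the 6 pairs of genotypes, so both fits are given. The pairing comes from this check and the number in the sample titles. An exact test of 2 libraries against 2 cannot go below p = 0.333 and was not used. Gene overlaps were read from GENCODE vM21 (GRCm38), and promoters were searched with Python 3.11.15.

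The genes and lists were chosen with earlier results of these data known, so no list was tested. Genes given with all values are fixed examples and those with the 4 largest or 2 smallest absolute DKO minus Nfkb2-KO differences in each class. Others are given by a difference, as called with the block, as the 3 largest against WT or the 3 largest between replicates, or to complete a role. Roles were assigned after the values were seen. Alternatives were other filters, a pseudocount of 1, quantile and median scaling, no variance trend, each library left out, and the block. The same alternatives with the block kept, apart from leaving out libraries, were added after seeing the data.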

Additional observations from a re-analysis of the deposited data

Results flagged for a closer look

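The effect of losing Nfkb2 on Mki67 differed with the state of Relb in the fit with the replicate block. The interaction was 0.9875 log2 units (limma, adjusted p = 0.0451) and was positive at both replicate numbers, at 1.20 and 0.78. The adjusted p without the block was 1. With the block kept, Mki67 was not called with no filter on low values, a minimum mean of 32, quantile normalization or no variance trend. Nor did the call remain in most fits that left out 1 library, WT replicate 1 among them. In fits without the block that left out 1 library, the interaction ranged from 0.51 to 1.47 log2 units.

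A count of 25 of 29 mitotic genes had both Nfkb2-KO libraries under their WT partner and both DKO libraries over their RelB-KO partner of the same replicate number, with 5.1% of all genes doing so. This count was not tested. With the block, the interaction was called for Mki67 alone of the 29, and none of their DKO minus RelB-KO differences was called.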

How the results depend on the processing

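The count of the 50 genes called without the block, 0 in each of 7 contrasts, was unchanged by other filters, a pseudocount of 1, other scalings, no variance trend and each library left out. The replicate block, whose pairing rests on the numbers in the labels, raised it to 4 in Nfkb2-KO minus WT, 23 in DKO minus Nfkb2-KO, 6 in Nfkb2-KO minus RelB-KO and 1 in the interaction, and left it at 0 in the others.

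With the block kept, other settings, chosen after seeing the data, and the libraries entered moved these counts. In Nfkb2-KO minus WT the count was 0 with no filter on low values, 2 with a pseudocount of 1, 0 with no variance trend and 0 to 3 without single libraries. In DKO minus Nfkb2-KO it was 11 with no variance trend and 1 to 24 without single libraries. In Nfkb2-KO minus RelB-KO it was 3 with no filter, 1 with no variance trend and 0 to 6 without single libraries. In the interaction it was 0 with no filter, with a minimum mean of 32, with quantile normalization and with no variance trend, and 0 to 2 without single libraries. Without the block each was 0. The cause of these changes was not tested.

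Fits without the block that left out 1 library moved class medians, as the replicates then no longer balanced. Mitotic medians ranged from -0.30 to 0.32 in RelB-KO minus WT, from -0.53 to -0.10 in Nfkb2-KO minus WT, from 0.012 to 0.45 in DKO minus WT, from 0.27 to 0.80 in DKO minus Nfkb2-KO, from -0.063 to 0.52 in DKO minus RelB-KO, from -0.65 to 0.026 in Nfkb2-KO minus RelB-KO. S-phase medians ranged from -0.34 to 0.29 in RelB-KO minus WT, from -0.12 to 0.21 in Nfkb2-KO minus WT, from -0.014 to 0.60 in DKO minus WT, from -0.11 to 0.50 in DKO minus Nfkb2-KO, from -0.016 to 0.63 in DKO minus RelB-KO, from -0.29 to 0.35 in Nfkb2-KO minus RelB-KO. Other settings left all 12 medians within the replicate spread, and scaling changed the sign of 1, the S-phase median in RelB-KO minus WT (-0.0035, 0.0007 with quantile normalization and 0.0033 with centred libraries).

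Of the values of single genes under all alternatives, 602 kept direction and side of the threshold, 21 passed it with the block and 22 changed sign, each in a fit that left out a library. In DKO minus Nfkb2-KO the ranges were -0.12 to 0.99 for Ccne2, -0.050 to 0.63 for Cdc20, -0.16 to 0.29 for Mcm4, -0.63 to 0.50 for Pcna. In DKO minus WT the ranges were -0.033 to 0.81 for Cdk1, -0.047 to 0.95 for Rrm2. In Nfkb2-KO minus RelB-KO the ranges were -0.92 to 0.053 for Ccna2. In Nfkb2-KO minus WT the ranges were -0.86 to 0.0062 for Ccna2, -0.58 to 0.11 for Ccne2. In RelB-KO minus WT the ranges were -0.42 to 0.24 for E2f1, -0.20 to 0.38 for Gins2, -0.045 to 0.28 for Kif23, -0.30 to 0.092 for Mad2l1, -0.23 to 0.46 for Nuf2, -0.38 to 0.53 for Pole.

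With 2 libraries per genotype and no read counts, the precision of each value is known only from the spread between libraries.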

Other observations

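Regulators of the G1 phase were described as 2 further lists. Of 17 G1 cyclins, cyclin-dependent kinases and E2F factors, 4 rose and 1 fell in DKO over Nfkb2-KO with the replicate block (limma, adjusted p under 0.05, 2.07% of all genes rose and 2.96% fell). E2f8 and E2f7, which encode repressor E2F factors that act in S and G2, rose by 0.79 ± 0.12 and 0.37 ± 0.08 log2 units (± SE), and the activator genes E2f2 and E2f3 rose by 0.44 ± 0.10 and 0.37 ± 0.08. Cdk6, a kinase that starts the passage through G1, went the other way. It was higher in Nfkb2-KO than in WT by 0.58 ± 0.12 and than in RelB-KO by 0.67 ± 0.12, and lower in DKO than in Nfkb2-KO, at -0.59 ± 0.12.

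Of 16 brakes on the cell cycle, 1 fell in DKO over Nfkb2-KO with the block, the antiproliferative gene Btg1 at -0.59 ± 0.11. Ccng2, a cyclin linked to cell cycle arrest, was lower in Nfkb2-KO than in WT, at -0.59 ± 0.10, and than in RelB-KO, at -0.53 ± 0.10, and Cdkn1b, which encodes the p27 inhibitor of cyclin-dependent kinases, was lower in Nfkb2-KO than in RelB-KO at -0.50 ± 0.11. None of these was called without the block.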
